A study of Saccharomyces cerevisiae with 8 samples.

Results

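Transcript levels of genes of gluconeogenesis and the glyoxylate cycle were examined in *Saccharomyces cerevisiae* cells fermenting xylose without oxygen. The 10 listed genes were *PCK1*, *FBP1*, *ICL1*, *MLS1*, *MDH2*, *MDH3*, *CIT2*, *JEN1*, *PYC1* and *PYC2*, and 9 of them had a row among the 6328 genes of the table, found by gene name. *JEN1*, which encodes a lactate and pyruvate transporter, had no row under that name, so its level was not analysed. It entered only the sequence search around the start codons. The list was drawn up with *PCK1* already known to stand out between *azf1Δ* and WT, so values of that comparison chose the genes and are given below as a description with no test.

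All 8 libraries were labelled as Y128, an engineered strain that was evolved to ferment xylose. Cells were grown anaerobically on 2% xylose to the exponential phase. The 4 groups held 2 libraries each, lettered A and B and collected on different days. The groups without a plasmid were the parent strain (WT) and its *AZF1* deletion (*azf1Δ*). The others were the strain with an empty MoBY 2.0 plasmid (MoBY control) and the strain with *AZF1* on that plasmid (*AZF1* MoBY). *AZF1* encodes a zinc finger transcription factor that responds to sugar. MoBY 2.0 is a multicopy plasmid with a G418 resistance marker, and both plasmid strains received 200 mg/L G418 while WT and *azf1Δ* received none. Plasmid and G418 therefore differ together between MoBY control and WT, and their effects cannot be told apart. The strain is Y128 in the labels and Y133, made from Y128 by removing its drug marker, in the methods. The level of the resistance gene in WT, given below, goes with Y133.

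Gluconeogenesis builds glucose 6-phosphate from pyruvate and other small carbon compounds, and it bypasses the irreversible steps of glycolysis with enzymes of its own. The glyoxylate cycle lets cells turn acetyl-CoA from acetate, ethanol or fatty acids into 4-carbon acids without losing carbon as CO2. In yeast on glucose, Mig1 represses the genes of both routes, several of the enzymes are degraded, and the activators Cat8, Sip4, Rds2 and Adr1 turn the genes on once glucose is gone. Pyruvate carboxylase (*PYC1*, *PYC2*) and peroxisomal citrate synthase (*CIT2*) are less strictly tied to the absence of glucose, since they also supply carbon skeletons for amino acids.

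Levels are RPKM, reads scaled by gene length and by the mapped reads of the library, so that different genes may be set beside each other. The depth implied by the lowest values was 6190000 to 7160000 mapped reads per library. Replicates correlated across 5646 genes at 0.984 in MoBY control, the lowest, to 0.992 in *AZF1* MoBY, although genes are not independent replicates. *AZF1* itself checks the labels, at 13.2 and 11.6 RPKM in WT, 0.0501 and 0.1199 RPKM in *azf1Δ*, 13.3 and 14.3 RPKM in MoBY control, then 74.03 and 73.5 RPKM with the *AZF1* plasmid. Both *azf1Δ* values lie under the level of 3 reads, 0.153 and 0.176 RPKM. The resistance gene *kanR* stood at 0.200 and 0.351 RPKM in WT, 11.8 and 8.17 RPKM in *azf1Δ*, 36.5 and 40.2 RPKM with the *AZF1* plasmid and 68.6 and 90.5 RPKM with the empty one. Plasmid marker level thus differed between the plasmid groups, and its part in the results was not tested. The low WT level goes with the marker-free Y133 of the methods, since the paper lists Y128 as G418 resistant. In *azf1Δ*, which has no plasmid, the paper lists the KanMX resistance cassette at the deleted gene.

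The levels of the 9 genes spanned 238-fold in WT. *CIT2* was highest at 307.8 ± 13.6 RPKM (SD, n = 2), followed by *PYC1*, *MDH3*, *PYC2*, *ICL1*, *PCK1* and *MDH2*, with no overlap between libraries of neighbors in this order. *FBP1* and *MLS1* were lowest and their libraries overlapped. In *azf1Δ* the order differed in that *PCK1* lay above *ICL1*. In MoBY control, *ICL1*, *MDH2* and *PCK1* could not be ordered, and in *AZF1* MoBY the order of these genes was *PCK1*, *MDH2* and *ICL1*. Implied reads per library ran from 2561 to 3536 for *CIT2* and from 87.0 to 320.1 for *PCK1*, but only from 7 to 17.1 for *FBP1* and from 7.01 to 23.0 for *MLS1*, so small differences of these last genes were not detectable at this depth. Such read numbers bear on counting error alone, since reads were not tied to single molecules by identifiers.

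**Figure D1:**
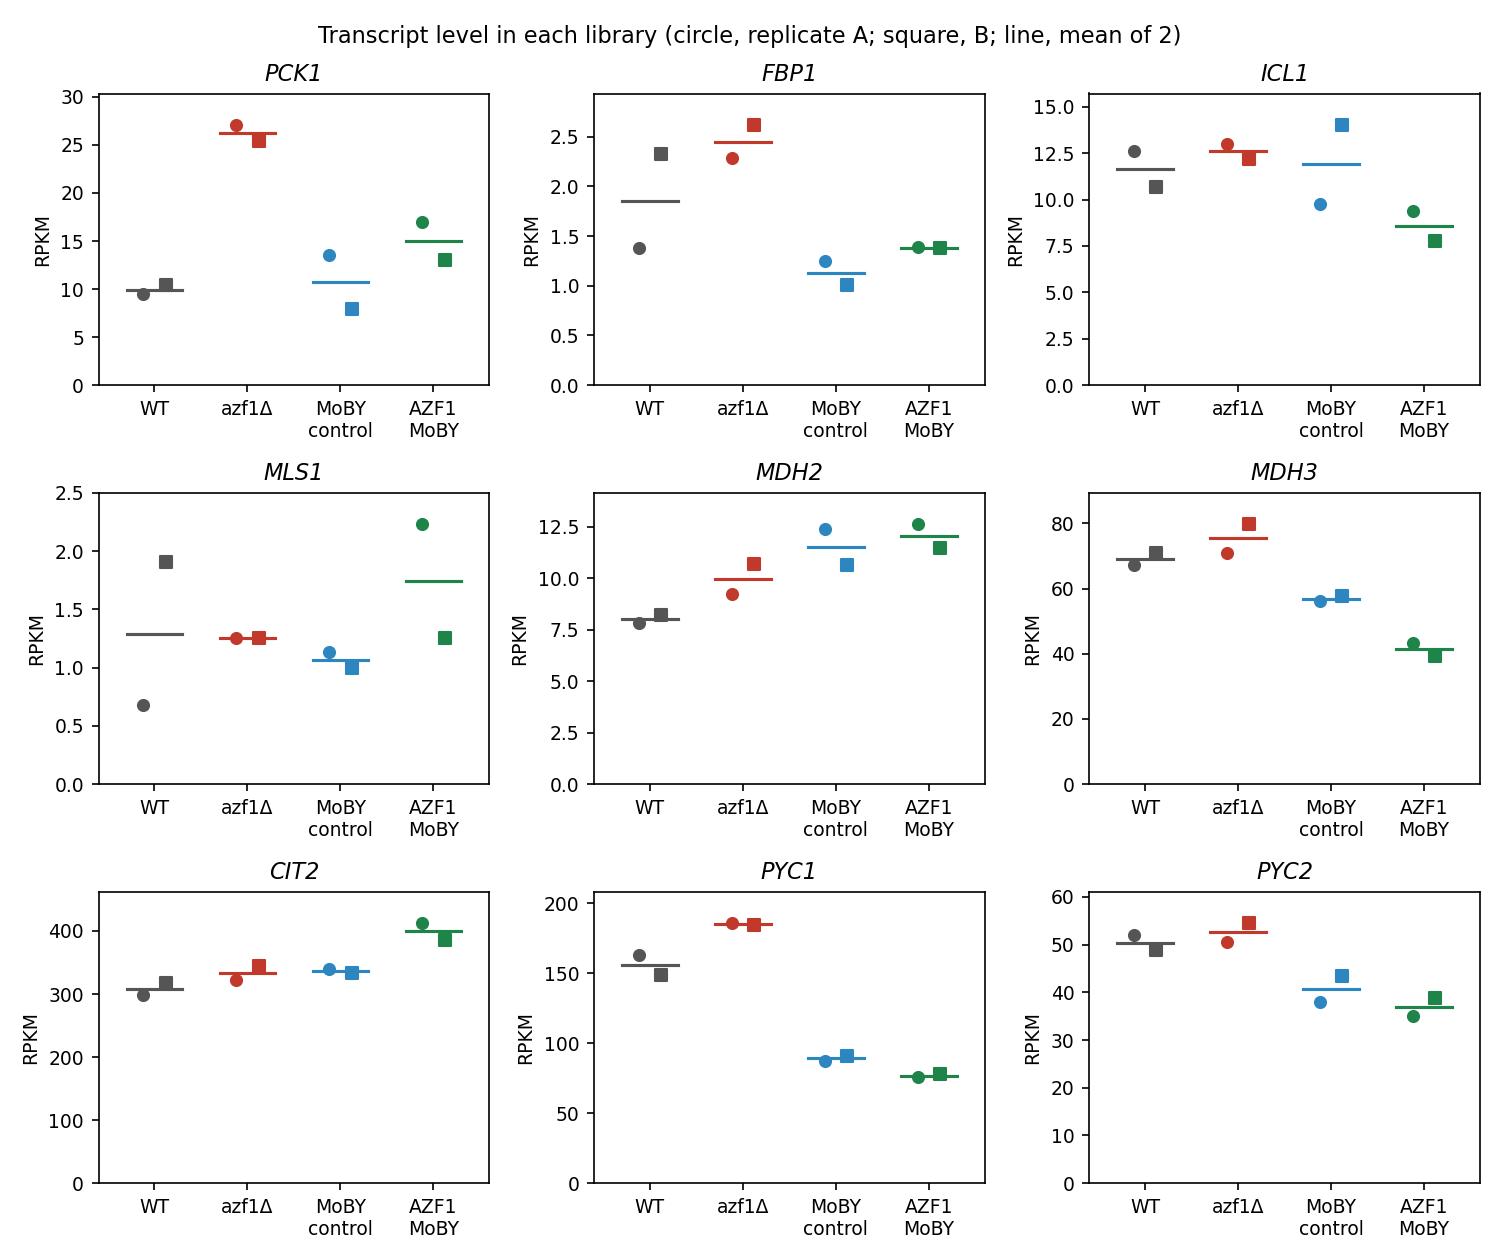
Level of each of the 9 genes in RPKM (vertical axis, starting at 0) in the 8 libraries, by group, with circles for replicate A, squares for replicate B and lines for the mean of 2. *PCK1* stood at 25.5 and 27.1 RPKM in *azf1Δ* and at no more than 17.0 RPKM in the other groups, while *PYC1* was at 75.6 to 91.1 RPKM in the plasmid strains and at 149.1 to 186.1 RPKM in the others.

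*PCK1* (YKR097W, chromosome XI) encodes phosphoenolpyruvate carboxykinase, which makes phosphoenolpyruvate from oxaloacetate and is the first committed step of gluconeogenesis. Its level was 9.45 and 10.4 RPKM in WT, 27.1 and 25.5 RPKM in *azf1Δ*, 13.6 and 7.95 RPKM in MoBY control, and 17.0 and 13.0 RPKM in *AZF1* MoBY. Both *azf1Δ* libraries lay above the other 6, and the libraries of the plasmid groups overlapped each other. The *azf1Δ* mean was 2.65-fold that of WT, a difference of 1.32 ± 0.11 (SE) in log2(RPKM + 1), the scale of all changes below, which understates the change of low genes. With a library left out, the difference ran from 1.26 to 1.38. These are the libraries on which *PCK1* was chosen, so the range is a description and no check of the difference. Between *AZF1* MoBY and MoBY control, *PCK1* differed by 0.48 ± 0.27 (SE), which did not pass the test (limma, adjusted p = 0.291). That value rested on the libraries of MoBY control: it was 0.83 without replicate A of that group (limma, adjusted p = 0.0134) and 0.13 without replicate B (limma, adjusted p = 0.649), which are the ends of the range over all alternatives. MoBY control and WT differed by 0.06 ± 0.25 (SE; limma, adjusted p = 0.890), a difference of -0.29 once MoBY control replicate A was dropped and of 0.41 once replicate B was dropped.

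*FBP1* (YLR377C, chromosome XII) encodes fructose-1,6-bisphosphatase, which reverses the phosphofructokinase step. It was read at 1.38 and 2.33 RPKM in WT, 2.28 and 2.62 RPKM in *azf1Δ*, 1.25 and 1.01 RPKM in MoBY control, and 1.40 and 1.38 RPKM in *AZF1* MoBY. WT and *azf1Δ* overlapped, and MoBY control lay below both WT libraries by 0.40 ± 0.29 (SE), short of the threshold (limma, adjusted p = 0.359). *AZF1* MoBY exceeded MoBY control by 0.17 ± 0.22 (SE; limma, adjusted p = 0.663).

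*ICL1* (YER065C, chromosome V) encodes isocitrate lyase and *MLS1* (YNL117W, chromosome XIV) malate synthase, the enzymes found only in the glyoxylate cycle. *ICL1* stood at 12.6 and 10.7 RPKM in WT, 13.0 and 12.2 RPKM in *azf1Δ*, 9.78 and 14.03 RPKM in MoBY control, and 9.38 and 7.78 RPKM in *AZF1* MoBY. The *AZF1* MoBY libraries were the lowest of the 8, and the first 3 groups overlapped. The change from MoBY control was -0.41 ± 0.21 (SE; limma, adjusted p = 0.248), and it was -0.65 without MoBY control replicate A, where it passed (limma, adjusted p = 0.0287, against a highest value of 0.512 among the alternatives). *MLS1* ranged from 0.678 to 2.24 RPKM over the 8 libraries, and those extremes were WT replicate A and *AZF1* MoBY replicate A. No change of *MLS1* passed the test (limma, adjusted p = 0.388 for *AZF1* MoBY against MoBY control and 0.879 for MoBY control against WT).

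*MDH2* (YOL126C, chromosome XV) and *MDH3* (YDL078C, chromosome IV) encode the cytosolic and the peroxisomal malate dehydrogenase, which interconvert malate and oxaloacetate. *MDH3* stood at 67.2 and 71.0 RPKM in WT, 71.0 and 79.9 RPKM in *azf1Δ*, 56.1 and 57.7 RPKM in MoBY control, and 43.4 and 39.4 RPKM in *AZF1* MoBY. The groups without plasmid lay above MoBY control, which lay above *AZF1* MoBY. *MDH3* fell by 0.45 ± 0.10 (SE) in *AZF1* MoBY relative to MoBY control (limma, adjusted p = 0.0357), to 0.728 of its level. The fall ended short of the threshold without *AZF1* MoBY replicate B, where the change was -0.38 (limma, adjusted p = 0.0855, the highest among the alternatives, with 0.00987 the lowest), after rescaling the libraries, where it was -0.41 (limma, adjusted p = 0.052), and without a variance trend (limma, adjusted p = 0.0786). A fit with the replicate letter as a block also ended the call (limma, adjusted p = 0.0743). The difference between MoBY control and WT was -0.28 ± 0.10 (SE; limma, adjusted p = 0.110).

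*MDH2* was far lower, at 7.84 and 8.23 RPKM in WT, 9.25 and 10.7 RPKM in *azf1Δ*, 12.4 and 10.6 RPKM in MoBY control, and 12.6 and 11.5 RPKM in *AZF1* MoBY. WT was the lowest group, with both libraries under all 6 others. MoBY control exceeded WT by 0.47 ± 0.16 (SE), short of the threshold (limma, adjusted p = 0.0806). Dropping MoBY control replicate B gave 0.57, which passed (limma, adjusted p = 0.0267, with 0.128 the highest among the alternatives). *AZF1* MoBY and MoBY control differed by 0.06 ± 0.15 (SE; limma, adjusted p = 0.814).

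*CIT2* (YCR005C, chromosome III) encodes the peroxisomal citrate synthase of the glyoxylate cycle and is the usual reporter of the retrograde pathway, by which cells respond to impaired mitochondria. It varied least, with its highest library 1.39 times its lowest. *CIT2* stood at 298.2 and 317.4 RPKM in WT, 321.8 and 344.9 RPKM in *azf1Δ*, 340.1 and 333.1 RPKM in MoBY control, and 413.0 and 385.3 RPKM in *AZF1* MoBY. Both *AZF1* MoBY libraries were above the other 6, by 0.24 ± 0.08 (SE) over MoBY control, which did not pass the test (limma, adjusted p = 0.106).

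*PYC1* (YGL062W, chromosome VII) and *PYC2* (YBR218C, chromosome II) encode cytosolic pyruvate carboxylases, which make oxaloacetate from pyruvate. *PYC1* stood at 163.1 and 149.1 RPKM in WT, 186.1 and 184.8 RPKM in *azf1Δ*, 87.4 and 91.1 RPKM in MoBY control, and 75.6 and 77.7 RPKM in *AZF1* MoBY. None of the 4 groups overlapped. *PYC1* fell by 0.80 ± 0.10 (SE) in MoBY control relative to WT (limma, adjusted p = 0.00333), to 0.572 of its level, and the change stayed between -0.86 and -0.73 and past the threshold under every alternative run. The further difference in *AZF1* MoBY, -0.22 ± 0.09 (SE), did not pass (limma, adjusted p = 0.152). *PYC2* stood at 52.0 and 48.8 RPKM in WT, 50.6 and 54.6 RPKM in *azf1Δ*, 38.1 and 43.4 RPKM in MoBY control, and 35.0 and 38.9 RPKM in *AZF1* MoBY. MoBY control lay under WT, at a change of -0.30 ± 0.12 (SE) that did not pass (limma, adjusted p = 0.123). Dropping MoBY control replicate B gave -0.40, which passed (limma, adjusted p = 0.0284, with 0.208 the highest among the alternatives). The coding sequences of *PYC1* and *PYC2* were 85.5% identical in the S288C reference, and 3.17% of the 100-base windows of *PYC1* also occur in *PYC2*, so that reads from those windows could have been split or lost and both levels are uncertain to that extent.

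Set side by side, the comparisons called few of these genes. Between *AZF1* MoBY and MoBY control, 1 of 9 passed the test (*MDH3*, lower), where 16.4% of all 6029 genes tested did, 10.2% higher and 6.17% lower. The median change of the 9 was 0.06, beside 0.0047 for all genes. Between MoBY control and WT, 1 of 9 passed (*PYC1*, lower), where 23.7% of 5991 genes did, 13.2% higher and 10.6% lower, with a median of -0.10 beside -0.022. With 1 gene called in each, these counts are too small to set the 9 genes apart from all genes in either direction. Between *azf1Δ* and WT, the change in log2(RPKM + 1) was positive for 9 of 9 genes, while 59% of all genes tested were higher, and 9 of 9 stayed positive after rescaling, where 49.5% of all genes did. For *MLS1* the sign depended on the scale, since its mean was 1.26 RPKM in *azf1Δ* and 1.29 RPKM in WT. With a library left out, the change of *MLS1* ran from -0.36 to 0.43 and that of *ICL1* reached -0.0046. Both *azf1Δ* libraries lay above both WT libraries for 4 of 9 genes (*PCK1*, *MDH2*, *CIT2* and *PYC1*), beside 30.7% of all genes, and 1.73% of all genes passed the test in that comparison. Since the genes were chosen on that comparison, nothing is read from these counts. After *PCK1*, the differences were small, from 0.03 for *MLS1* to 0.29 for *FBP1*. The comparisons share the WT or the MoBY control libraries, so they are not independent of one another.

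**Figure D2:**
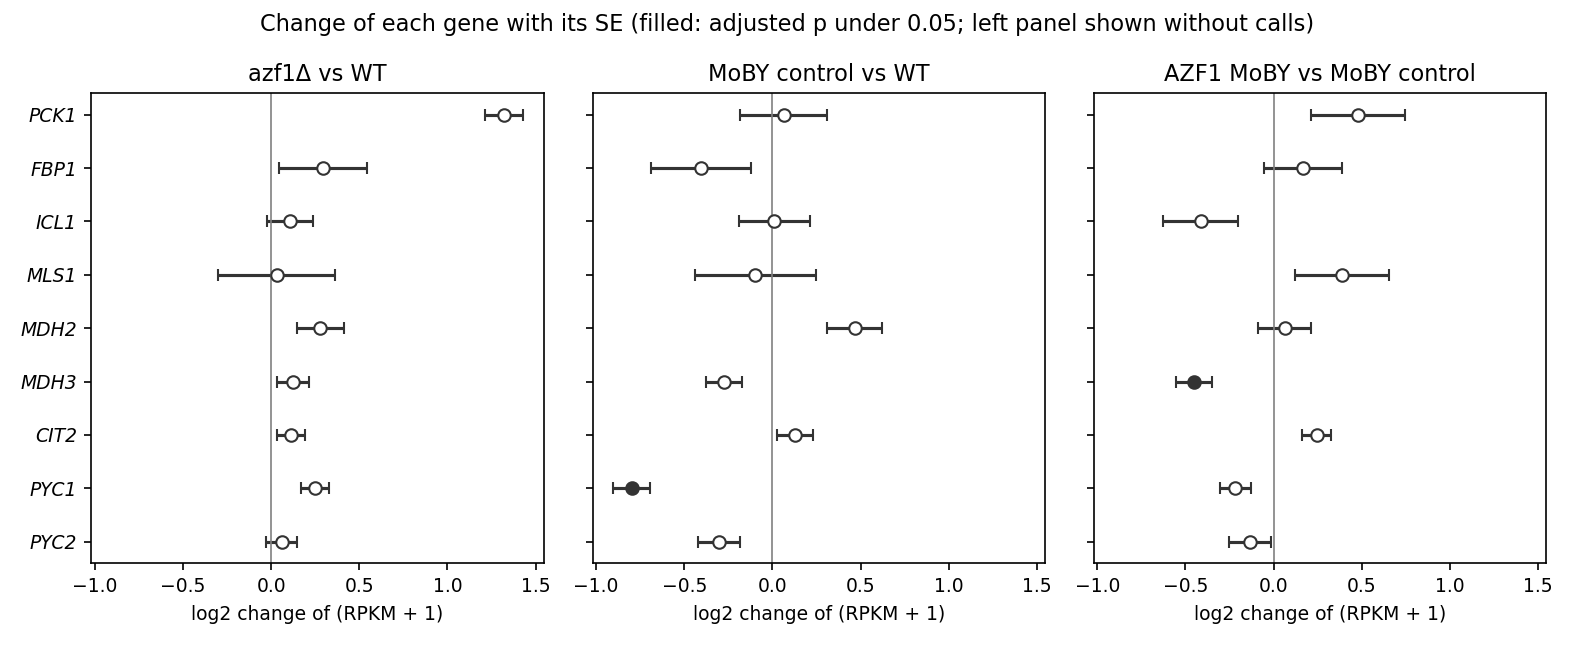
Change of each of the 9 genes in log2(RPKM + 1) (horizontal axis) with its SE, in 3 comparisons of 2 against 2 libraries. Filled points passed the test, which was *PYC1* at -0.80 in MoBY control against WT and *MDH3* at -0.45 in *AZF1* MoBY against MoBY control, and *azf1Δ* against WT is shown without calls.

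Several of these enzymes have a second isoform or a related enzyme, and the share of each in the summed RPKM of its family is given as a description. *MDH2* made up 3.57 ± 0.144% (SD, n = 2) of the malate dehydrogenase transcripts in WT, 4.22 ± 0.514% in *azf1Δ*, 7.35 ± 0.664% in MoBY control and 10.1 ± 0.0546% in *AZF1* MoBY. The groups did not overlap. The mitochondrial isoform *MDH1* fell from 151.2 and 145.0 RPKM in WT to 89.9 and 86.2 RPKM in MoBY control (limma, adjusted p = 0.00355). It fell further with the *AZF1* plasmid, to 70.03 and 62.7 RPKM (limma, adjusted p = 0.0448), a call that was lost after rescaling and without a variance trend. *CIT2* made up 57.7 ± 0.468% of the citrate synthase transcripts in WT, 53.3 ± 1.44% in *azf1Δ*, 72.4 ± 1.15% in MoBY control and 79.8 ± 1.92% in *AZF1* MoBY. Its mitochondrial counterpart *CIT1* stood at 218.3 and 226.0 RPKM in WT and fell to 131.6 and 119.4 RPKM in MoBY control (limma, adjusted p = 0.00303).

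*MLS1* was the minor malate synthase transcript throughout, at 3.01% to 14.2% of *MLS1* and *DAL7* together. *DAL7*, the malate synthase of allantoin degradation, stood at 12.5 and 11.6 RPKM in WT, 23.8 and 22.6 RPKM in MoBY control, and 33.6 and 40.5 RPKM in *AZF1* MoBY. It rose by 0.90 ± 0.13 (SE) in MoBY control over WT (limma, adjusted p = 0.00483) and by a further 0.65 ± 0.13 (SE) in *AZF1* MoBY (limma, adjusted p = 0.0262), where the call was lost without a variance trend. The coding sequences of *MLS1* and *DAL7* share no 100-base window in the reference. *PYC1* held 75.6 ± 0.362% of the pyruvate carboxylase transcripts in WT, 77.9 ± 1.01% in *azf1Δ*, 68.7 ± 1.37% in MoBY control and 67.5 ± 1.18% in *AZF1* MoBY. *ICL1* was set beside *ICL2*, which encodes a mitochondrial methylisocitrate lyase. Of their summed transcripts *ICL1* held 75.3 ± 2.73% in WT, 76.8 ± 5.6% in *azf1Δ*, 73.8 ± 3.59% in MoBY control and 62.9 ± 2.40% in *AZF1* MoBY.

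**Figure D3:**
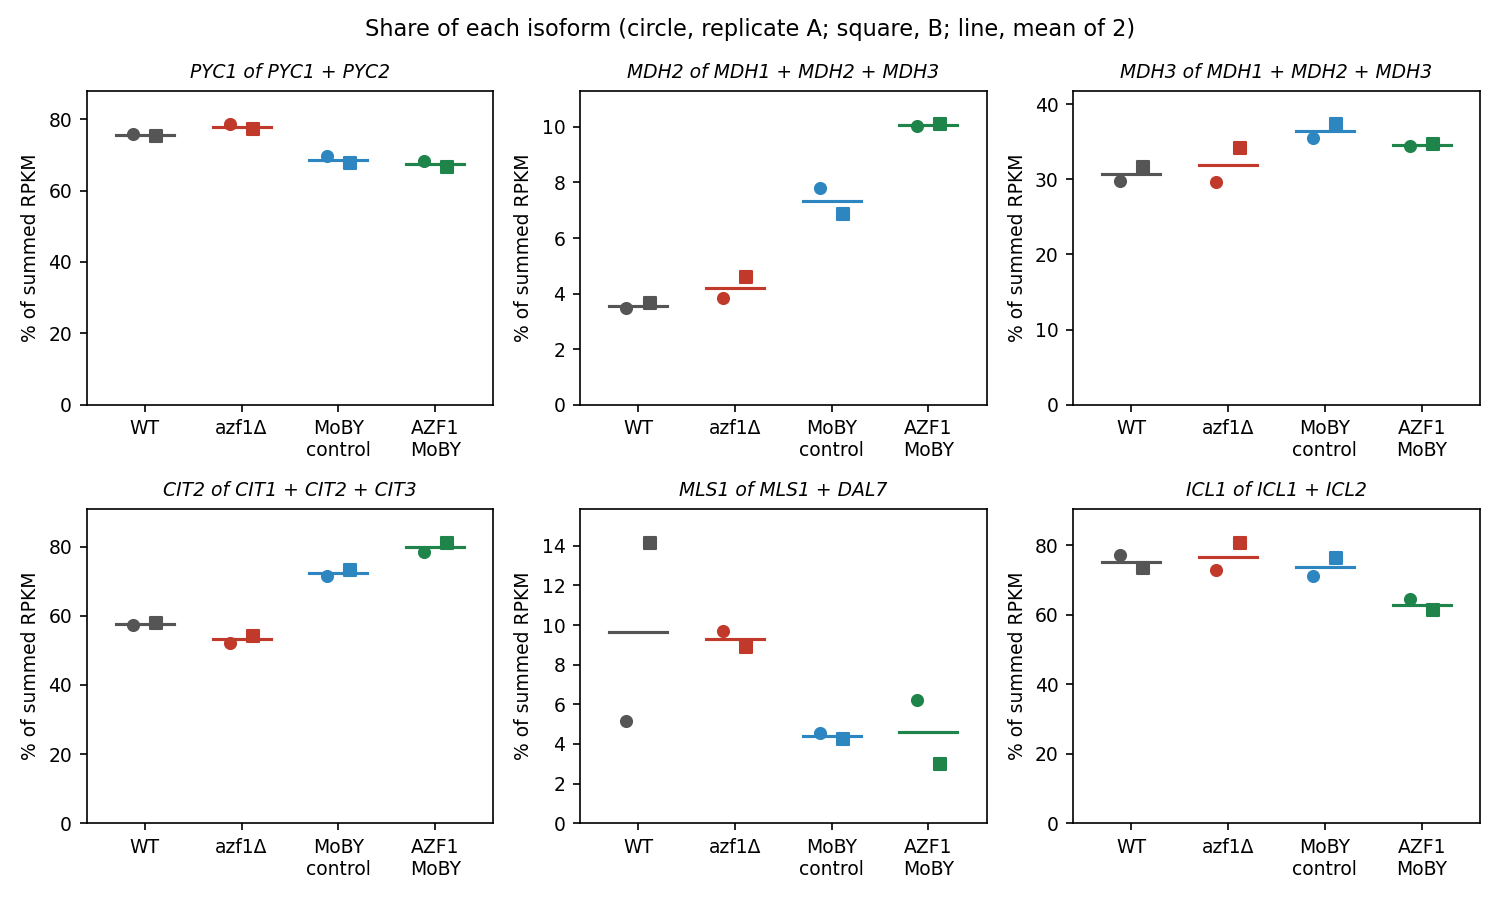
Share of 6 genes in the summed RPKM of their enzyme family (vertical axis, percent, starting at 0) in the 8 libraries, with circles for replicate A, squares for replicate B and lines for the mean of 2. *MDH2* was at 3.46% and 3.67% in WT, 7.82% and 6.88% in MoBY control, and 10.03% and 10.1% in *AZF1* MoBY. *CIT2* was at 57.4% and 58.1% in WT, 71.6% and 73.2% in MoBY control, and 78.5% and 81.2% in *AZF1* MoBY.

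Genes that feed, oppose or regulate the pathway were counted in lists written from general knowledge, but with earlier results of these data known. Over all genes tested, 23.7% passed in MoBY control against WT, 13.2% higher and 10.6% lower. In *AZF1* MoBY against MoBY control 16.4% passed, 10.2% higher and 6.17% lower. No list was tested as a set against these shares. Of 7 genes for glycolytic enzymes and their regulators, 6 work against gluconeogenesis, while *FBP26* encodes fructose-2,6-bisphosphatase, which removes an inhibitor of the *FBP1* enzyme. In MoBY control relative to WT, 4 of the 7 passed as lower and none as higher. Their median change was -0.63, beside -0.022 for all genes, and *FBP26* changed by 0.13 (limma, adjusted p = 0.54). *CDC19*, the main pyruvate kinase, went from 3616 and 3641 RPKM in WT to 2106 and 1734 RPKM in MoBY control (limma, adjusted p = 0.00714). With the *AZF1* plasmid it went on to 1209 and 1278 RPKM (limma, adjusted p = 0.023). *PFK1*, a phosphofructokinase subunit, changed by -0.78 ± 0.12 (SE; limma, adjusted p = 0.00606) and then by -0.50 ± 0.08 (SE; limma, adjusted p = 0.0118). In *AZF1* MoBY relative to MoBY control, 3 of the 7 fell, a count that was 1 after rescaling and 0 without a variance trend.

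Of 5 activators, *SIP4* rose most. It stood at 2.66 and 3.16 RPKM in WT, 2.81 and 4.17 RPKM in *azf1Δ*, 19.97 and 25.1 RPKM in MoBY control, and 43.4 and 40.2 RPKM in *AZF1* MoBY. *SIP4* rose in MoBY control over WT (limma, adjusted p = 0.000298) and by 0.87 ± 0.14 (SE) in *AZF1* MoBY over MoBY control (limma, adjusted p = 0.0139). *ADR1* rose by 0.56 ± 0.11 (SE) in the latter comparison (limma, adjusted p = 0.0227), where the count of activators called went from 2 to 1 without a variance trend. Between *azf1Δ* and WT, given with no test, the 5 activators ran from -0.31 for *RDS2* to 0.40 for *CAT8*. Both *azf1Δ* libraries lay above both WT libraries for 2 of the 5 (*CAT8* and *ADR1*), beside 30.7% of all genes. They lay below both for *RDS2*, and the share of all genes that did so was not counted.

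The Mig repressors differed among themselves. *MIG3* stood at 8.94 and 5.32 RPKM in WT, 2.59 and 1.495 RPKM in *azf1Δ*, 17.5 and 16.8 RPKM in MoBY control, and 38.9 and 38.6 RPKM in *AZF1* MoBY, with no overlap between groups. It rose in *AZF1* MoBY by 1.13 ± 0.11 (SE; limma, adjusted p = 0.00353), while *MIG1* fell by 0.62 ± 0.12 (SE; limma, adjusted p = 0.0255). *MIG2* rose by 1.05 ± 0.14 (SE) in MoBY control over WT (limma, adjusted p = 0.00391).

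Of 9 partners in two-carbon use, 2 carnitine genes fell in MoBY control, beside 10.6% of all genes. In *AZF1* MoBY 1 of these genes rose, beside 10.2% of all genes. *YAT1*, a carnitine acetyltransferase, changed by -1.19 ± 0.13 (SE) in MoBY control relative to WT (limma, adjusted p = 0.00174). *CRC1*, the mitochondrial carnitine carrier, fell from 6.73 and 8.17 RPKM in WT to 2.36 and 2.75 RPKM in MoBY control (limma, adjusted p = 0.00703) and was higher again in *AZF1* MoBY, at 6.23 and 4.89 RPKM (limma, adjusted p = 0.0385). Between *azf1Δ* and WT, given with no test, the changes of the 9 genes ran from -0.34 for *ADY2* to 0.56 for *CAT2* with a median of 0.18. Both *azf1Δ* libraries lay above both WT libraries for 5 of the 9, beside 30.7% of all genes. None of the 7 retrograde pathway genes passed in either plasmid comparison, where 23.7% (MoBY control against WT) and 16.4% of all genes did. The GID ubiquitin ligase marks gluconeogenic enzymes for degradation on glucose. Of its 8 genes, *VID24* and *RMD5* passed in MoBY control relative to WT, beside 23.7% of all genes. *VID24*, the substrate receptor, fell by 0.97 ± 0.13 (SE; limma, adjusted p = 0.00339) and *RMD5* rose by 0.56 ± 0.12 (SE; limma, adjusted p = 0.0202). None of the 8 passed in *AZF1* MoBY relative to MoBY control, beside 16.4% of all genes.

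**Figure D4:**
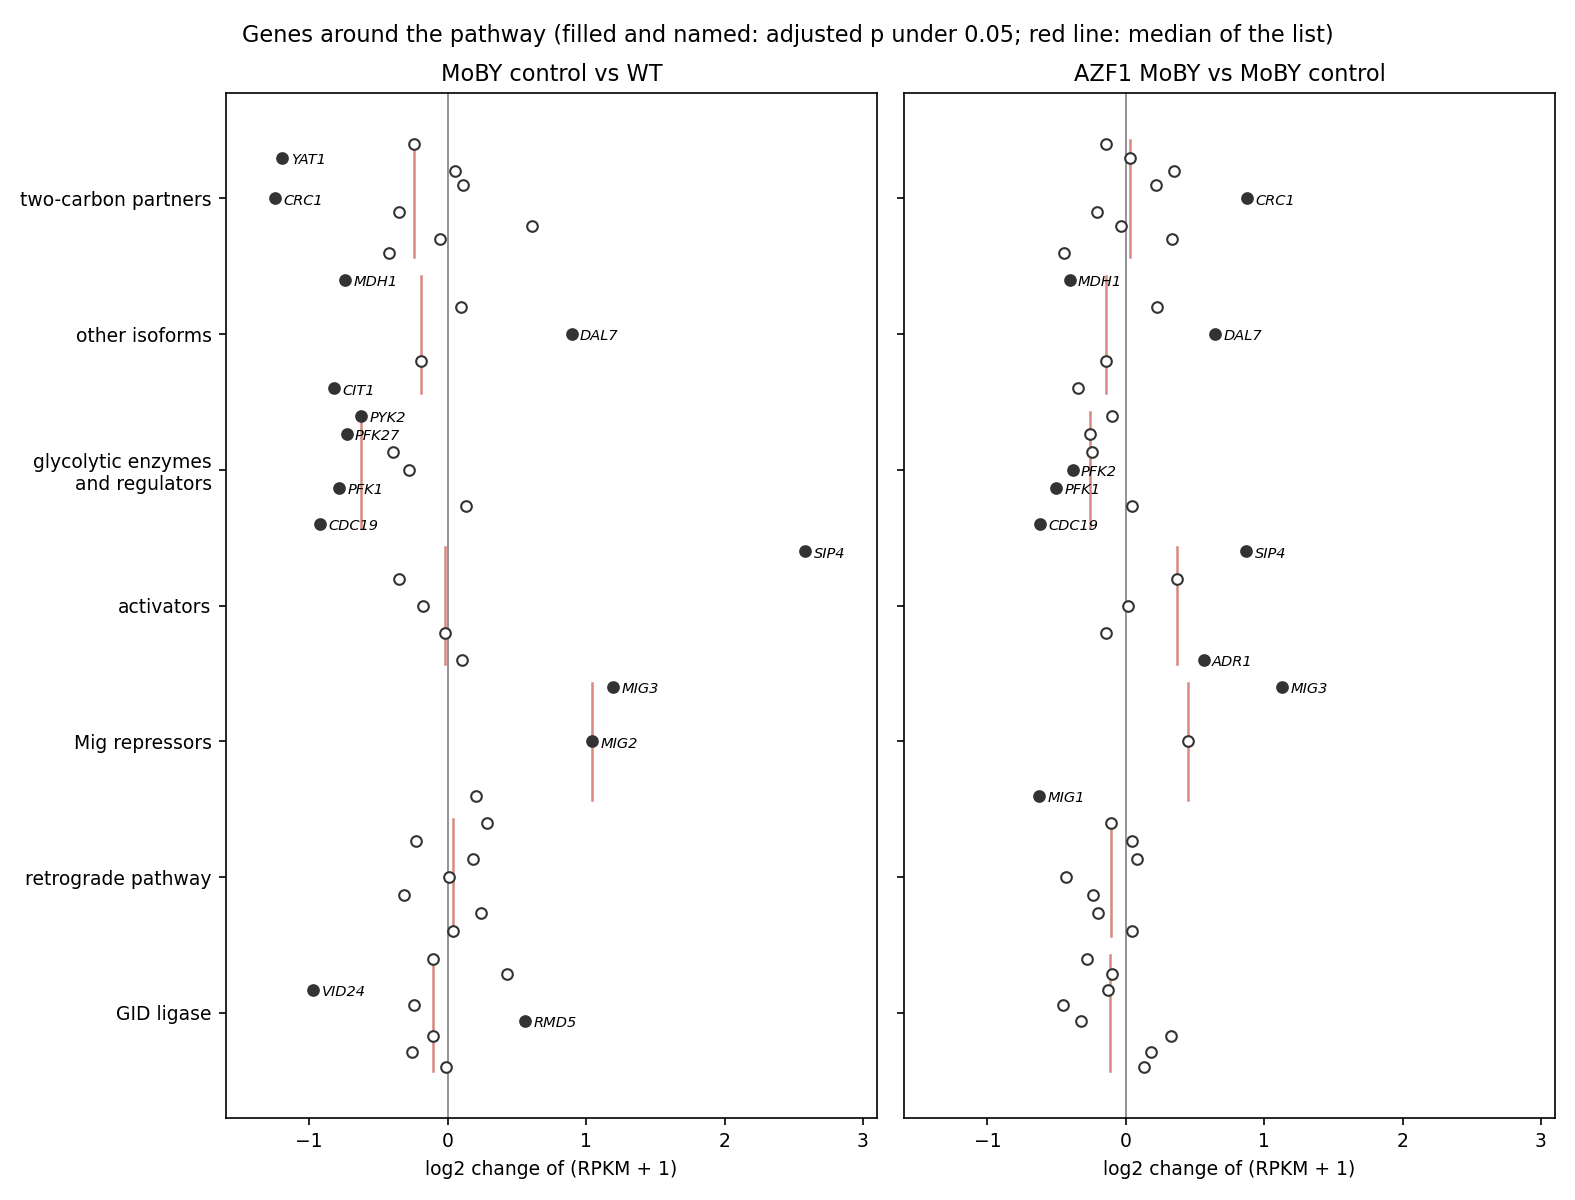
Change of each gene of 7 lists in log2(RPKM + 1) (horizontal axis) in MoBY control against WT and *AZF1* MoBY against MoBY control, with filled, named points for genes past the test and red lines for the median of each list. *SIP4* lay farthest to the right in MoBY control against WT and *MIG3*, at 1.13, in *AZF1* MoBY against MoBY control.

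The genes whose pattern over the 8 libraries lay nearest to that of *PCK1* were none of the other enzymes. By the root mean square difference of centred log2(RPKM + 1), the 5 nearest of 5638 genes were YHR180W (0.233), YOR302W (0.258), *IME1* (0.292), YBR027C (0.326) and YBR201C-A (0.33), where the median gene was at 0.611. The listed genes were left out of this ranking. *IME1*, which encodes the master regulator of meiosis, stood at 2.38 and 2.25 RPKM in WT and 6.19 and 4.79 RPKM in *azf1Δ*. In MoBY control it stood at 3.89 and 2.51 RPKM and in *AZF1* MoBY at 2.85 and 3.56 RPKM. The ranking follows the pattern of *PCK1*, so a higher level of these genes in *azf1Δ* comes with the ranking and is no separate result. The nearest of the 8 other enzymes was *FBP1*, at 0.429. Among the enzymes, *MDH2* and *CIT2* were the closest pair (0.129).

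Stretches before the start codons are shown for *PCK1*, *ICL1* and *MDH3*, a choice made after the values were seen. In the 500 bases before the start, each carried a match to the carbon source-responsive element (CSRE), the site of Cat8 and Sip4. The Azf1 core AAAAGAAA was found for *ICL1* and *MDH3* and not for *PCK1*. Whether these matches bear on the transcript levels was not tested. The stretches were read from the RefSeq R64 genome of strain S288C, not from the genome of the strain, and are written on the strand of the gene with the matched letters in capitals.
*PCK1* CSRE: accgagcttCCTTTCATCCGgcgcggct
*PCK1* CSRE, opposite strand: atggataggCGGATAAAGGGcccaaaca
*ICL1* CSRE: cccaggtttCCATTCATCCGagcgatca
*ICL1* Azf1 core, opposite strand: ttatccttttTTTCTTTTcacacccaaa
*MDH3* Azf1 core: ttgtcagtgcAAAAGAAAataaaaagag

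The CSRE was searched on both strands as CC, 1 free base, T, 4 free bases and CCG. In the window set first, 250 bases before to 50 after the start, it was found for 1 of the 10 listed genes (*PYC2*), beside 3.51% of all genes. That *PYC2* match lay after the start, within the coding sequence. In the 500 bases before the start, a window added later, it was found for 5 of 10 (*PCK1*, *ICL1*, *MLS1*, *MDH2* and *MDH3*), beside 7.08%. A stricter consensus, tried only after those matches had been seen, was found for 0 of 10 beside 0.2% in the first window and for 3 of 10 (*PCK1*, *ICL1* and *MDH2*) beside 0.433% in the second. The count thus depends on both choices, and the genes are known from the literature of this element, so the counts are no independent result. The Azf1 core was found for the same 4 genes in both windows (*ICL1*, *MLS1*, *MDH3* and *PYC2*), beside 20.7% and 30.5% of all genes. The Mig1 box, taken as CCGGGG or GCGGGG or CTGGGG or GTGGGG, was found for 2 of 10 beside 11.7% and for 6 of 10 beside 22.7%. The R box GTCAC, bound by the retrograde factors Rtg1 and Rtg3, was found for 2 of 10 beside 26.5% and for 5 of 10 beside 42.5%. A match is a description of letters and not a measured site.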

How the data were processed

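The authors trimmed single-end 100-base reads with Trimmomatic 0.3.0, aligned them to the Y22-3 genome with Bowtie2 2.2.2 and counted reads per gene with HTSeq 0.6.0, per the labels and the methods of the study. The table deposited by the authors holds log2 RPKM rounded to 2 decimals. The strand setting of the counting is not given in the sources used here. The authors ran edgeR on counts, which were not used here.

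RPKM were taken back from the log2 values, a pseudocount of 1 was added and the log2 of the sum was fitted with limma (version 3.58.1, R 4.3.3, lmFit, then eBayes with its trend option) without covariates. A gene was tested where 2 or more of the 4 libraries compared reached 1 RPKM. Benjamini-Hochberg adjustment ran over all genes tested, with a threshold of 0.05. The design had been written for counts or normalized values, and the latter route was used. Exact permutation of 2 against 2 libraries cannot reach the threshold. The script was tested on simulated data.

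Depth was inferred from low values, as the depth that put most of them near a whole read. At that depth 84.0% to 88.6% fell within 0.15 of a whole read in each library. A depth fixed beforehand would give 30% by chance. The depth was fitted to this same share, so the contrast is no independent check. Replicate letters were not used as a block, since no label says that a letter marks the same day in every group. In the data, differences between A and B correlated across groups at only -0.12 to 0.04 over 5646 genes.

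The listed genes, the gene lists and the tests were chosen with earlier results of these data known. All listed genes were named, and others only where a list gene passed a test or had one of the 2 largest changes of its list, or where they mark the ends or the counts of a list in *azf1Δ* (*CAT8*, *CAT2*, *ADY2*) or differ in role from their list (*FBP26*), choices made after the values were seen. The letters of the CSRE were not fixed before the search, and its stricter form and the 500-base window were added afterwards. Alternatives were another pseudocount, filter, scaling and variance model, all 8 libraries in 1 fit, a replicate block and leaving out each library.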

Additional observations from a re-analysis of the deposited data

How the results depend on the processing

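Of the genes listed, the number called between *AZF1* MoBY and MoBY control went from 1 to 0 without a variance trend, after rescaling and with a replicate block, and was 0 to 3 when a library was left out: *MDH3* alone was lost without *AZF1* MoBY replicate B, and *PCK1* and *ICL1* were gained without MoBY control replicate A. *MDH3* had an adjusted p (limma) of 0.0786 without a trend, 0.052 after rescaling and 0.0743 with the block. Between MoBY control and WT the number was 2 with all 8 libraries in the fit, where *MDH2* was added, and 1 to 3 with a library left out. Between *azf1Δ* and WT, the comparison that chose the genes, such a number is no result about them and is left out. As a description, the difference of *PCK1* ran from 1.26 to 1.40 over the alternatives.

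With the replicate block, the calls of *MDH1*, *DAL7*, *CRC1*, *MIG1*, *ADR1* and *PFK2* in *AZF1* MoBY against MoBY control were lost as well.

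Genes of both signs across the left-out libraries were *MDH2* (-0.0369 to 0.165) in *AZF1* MoBY against MoBY control, and *PCK1* (-0.288 to 0.414), *ICL1* (-0.229 to 0.25) and *MLS1* (-0.492 to 0.299) in MoBY control against WT. Over all genes, 988 calls in *AZF1* MoBY against MoBY control became 599 without a trend and 1489 without MoBY control replicate A, and 103 calls in *azf1Δ* against WT became 5 without a filter, 5 without a trend, 61 after rescaling, 0 with the replicate block, 41 with the *azf1Δ* letters exchanged in the block (an alternative chosen after seeing the data) and 2 to 44 with a library left out. The cause of these changes was not tested. Leaving out a library leaves a group of 1, which is assumed to vary like the other group. *FBP1* and *MLS1* are limited by their read numbers. The CSRE counts depended on the window and on the strictness of the letters, as given above.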
